A study of Mus musculus with 12 samples.

Results

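The 10 genes described here are imprinted genes that are expressed from the paternal chromosome in most mouse tissues. They were taken by symbol from a list of 10 names (Igf2, Plagl1, Kcnq1ot1, Peg3, Peg10, Sgce, Mest, Nnat, Ndn and Dlk1). All 10 were among the 23336 gene symbols of the count table, and all 10 were among the 12814 genes that passed the expression filter. The study compared RNA from mouse embryonic stem cells (ESCs) of 3 lines in 2 states, with 2 libraries in each of the 6 groups.

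The WT female groups were the line Pgk12.1, the RlimKO female groups were a female line whose X-linked ubiquitin ligase gene Rlim was labelled knocked out, and the WT male groups were the line E14. The labels gave C57BL/6 as the strain of every sample. The undifferentiated cells of each line were kept with LIF, the cytokine that sustains self-renewal. The differentiated cells of each line had formed embryoid bodies without LIF for 3 days and were then cultured for 6 days in 7.5% oxygen. No oxygen level was given for the undifferentiated cells. Differentiation here means this whole change of culture, whose parts, oxygen among them, cannot be told apart. Each genotype was a single line, so the knockout cannot be told apart from other differences between the female lines, and sex cannot be told apart from line. No label states that the libraries within a group were grown as independent cultures, and the p-values therefore reflect library-to-library spread that may be technical.

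Rlim itself was measured at 267 and 282 CPM (counts scaled to a common effective library size) in undifferentiated WT females, at 160 and 150 CPM in undifferentiated RlimKO females, and at 212 and 273 CPM in undifferentiated WT males. After differentiation it stood at 258 and 266 CPM for WT females, 290 and 299 CPM in RlimKO females and 267 and 275 CPM in WT males. The undifferentiated libraries labelled RlimKO were therefore the lowest, and the differentiated ones were not low. A count per gene does not show which exons the reads fell in, so it checks the deletion only in part. In what follows, RlimKO means the libraries so labelled. Counts in genes ranged from 2011919 to 5401940 per library, and the ribosomal precursor Rn45s took 6.36% to 67.7% of them, with both extremes among the differentiated cells (WT male replicate 2 and RlimKO female replicate 1). The 16 pluripotency genes listed for a check of the labels summed to 2260 to 2630 CPM in undifferentiated libraries and to 155 to 334 CPM in differentiated ones.

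Imprinting is the expression of a gene from only the maternal or only the paternal chromosome, set by DNA methylation laid down in the germ line at imprinting control regions. After fertilisation these marks are kept through the wave of demethylation by KRAB zinc finger proteins such as ZFP57, which binds a methylated hexamer and recruits KAP1 (Trim28). Paternally expressed genes as a class are known for promoting fetal and placental growth and include regulators of mesenchymal and neural development. The counts here do not separate the parental alleles, so they measure the total RNA of each gene and not its imprint. In bulk RNA, fewer cells of a type and less RNA per cell cannot be told apart.

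A set of stretches upstream of transcription starts are shown for 3 genes called in both female lines against the male line after differentiation (Igf2, Plagl1, Kcnq1ot1) and for the gene with most copies of the ZFP57 hexamer (Mest). They are exon-free parts of RefSeq promoter windows (GRCm38.p6, 250 bases before to 50 after a start), in lower case and read 5′ to 3′ on the strand of the gene, with each copy of TGCCGC or its reverse complement GCGGCA in capitals.
Igf2, last listed start, chr7:142657497-142657746, minus strand: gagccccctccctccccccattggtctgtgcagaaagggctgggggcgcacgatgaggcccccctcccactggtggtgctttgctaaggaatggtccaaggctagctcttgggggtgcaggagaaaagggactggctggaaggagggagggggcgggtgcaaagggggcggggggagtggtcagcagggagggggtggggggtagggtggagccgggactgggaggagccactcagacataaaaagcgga
Plagl1, chr10:13090582-13090690, plus strand: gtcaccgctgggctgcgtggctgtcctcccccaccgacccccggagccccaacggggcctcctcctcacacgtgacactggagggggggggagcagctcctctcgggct
Kcnq1ot1, chr7:143296550-143296797, minus strand: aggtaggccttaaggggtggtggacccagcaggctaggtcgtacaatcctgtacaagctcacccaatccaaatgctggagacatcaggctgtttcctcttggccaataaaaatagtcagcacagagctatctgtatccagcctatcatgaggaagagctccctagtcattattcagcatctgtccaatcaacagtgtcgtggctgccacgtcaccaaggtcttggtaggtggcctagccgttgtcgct
Mest, second listed start, chr6:30737800-30738049, plus strand: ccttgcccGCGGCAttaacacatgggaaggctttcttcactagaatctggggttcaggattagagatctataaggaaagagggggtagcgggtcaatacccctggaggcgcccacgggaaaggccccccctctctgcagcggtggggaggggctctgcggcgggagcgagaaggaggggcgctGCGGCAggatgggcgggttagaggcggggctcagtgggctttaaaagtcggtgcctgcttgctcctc
RefSeq windows were found for 8 of the 10 genes. The hexamer lay in 5 of their 13 windows, which belong to Igf2, Plagl1, Mest (a nearly identical pair) and Nnat, against 11.6% of 32851 windows over all genes. The copy of Igf2 lay in its second listed window, which is not shown. That of Plagl1 lay outside the exon-free stretch shown. Of the windows with 55% to 70% GC it lay in 3 of the 8 from these genes (Mest and Nnat) and in 17.7% of all. The 300-base window of Plagl1 held 26 CpG dinucleotides and the third window of Igf2 held 24, against a median of 7 over all windows. The windows of Kcnq1ot1 and Dlk1 held 9 CpG each and no hexamer. These matches describe the sequence only, and no methylation or binding was measured.

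Nearly the whole set was higher in differentiated than in undifferentiated cells. In WT females 10 of the 10 genes rose and in RlimKO females 10 of 10 rose, while in WT males 9 of 10 rose, Kcnq1ot1 being the exception. None fell. The median change was 4.16 on the log2 scale in WT females, 4.68 in RlimKO females and 3.40 in WT males, beside 0.09, 0.10 and 0.05 over all genes tested. Of all genes, 26.5% rose and 22.2% fell in WT females, 26.4% rose and 21.6% fell in RlimKO females, and 28.7% rose and 25.4% fell in WT males, at an adjusted p below 0.05 by edgeR's quasi-likelihood test. The summed level of the 10 genes went from 900 and 899 CPM to 9854 and 9237 CPM in WT females, from 912 and 1028 CPM to 10245 and 10030 CPM in RlimKO females, and from 550 and 554 CPM to 13778 and 6502 CPM in WT males. The differentiated male libraries were the widest pair of libraries in this sum. The plot of CPM by library shows each gene on the same log axis.

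**Figure D1:**
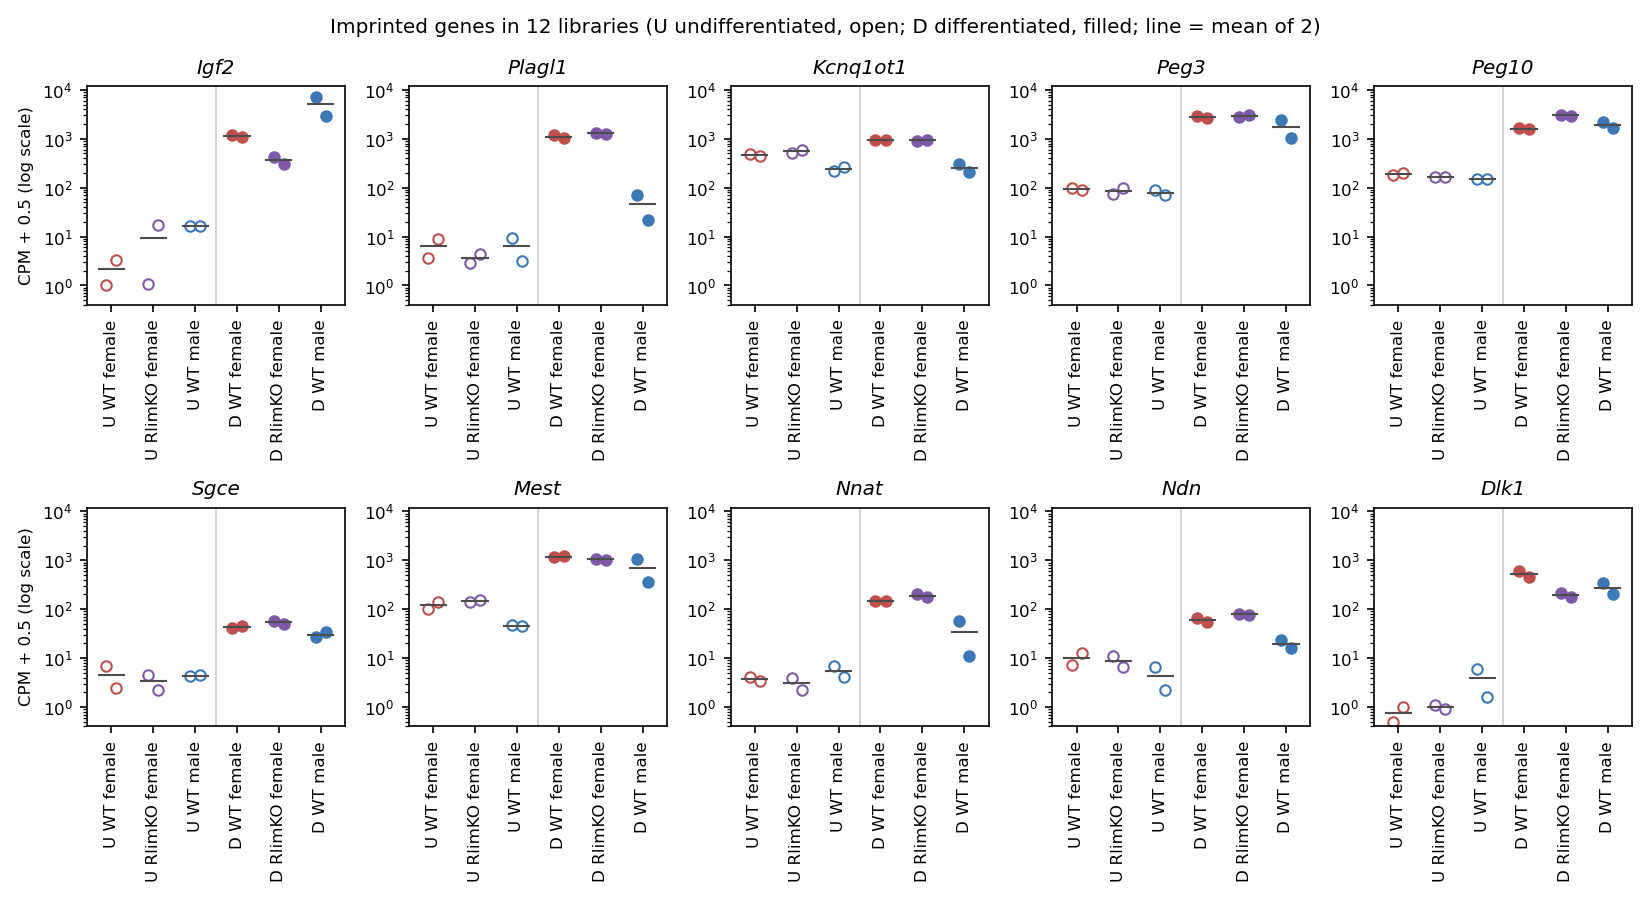
CPM + 0.5 on a log axis for each of the 10 genes, with 1 point per library and a line at the mean of the 2 libraries of a group, for undifferentiated (U, open) and differentiated (D, filled) cells of the 3 lines. Igf2 reached 7291 and 2954 CPM in differentiated WT males, and Plagl1 stayed at 71.4 and 20.8 CPM there against 1042 to 1302 CPM in both differentiated female lines.

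Among the growth ligands, Igf2 encodes insulin-like growth factor 2, a fetal growth factor (chromosome 7, 142650766 to 142666816, minus strand, mm10). It was measured at 0.525 and 2.86 CPM in undifferentiated WT females, 0.584 and 17.0 CPM in undifferentiated RlimKO females, and 15.6 and 16.1 CPM in undifferentiated WT males. After differentiation it stood at 1181 and 1104 CPM for WT females, 423 and 302 CPM in RlimKO females, and 7291 and 2954 CPM in WT males. The 3 differentiated groups did not overlap, and the male libraries were highest. Igf2 rose by 9.33 ± 0.74 on the log2 scale (SE; adjusted p = 2.13e-07) in WT females, by 5.21 ± 0.58 (adjusted p = 5.13e-06) in RlimKO females and by 8.33 ± 0.59 (adjusted p = 4.15e-08) in WT males. The undifferentiated RlimKO libraries held 1 and 40 counts of Igf2, so the base of that change was set by 1 library.

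Dlk1 encodes a transmembrane relative of the Notch ligands that is known for holding back adipocyte differentiation (chromosome 12, 109452823 to 109463336, plus strand). It was at 0 and 0.477 CPM in undifferentiated WT females, 0.584 and 0.426 CPM in undifferentiated RlimKO females and 5.57 and 1.10 CPM in undifferentiated WT males. After differentiation it reached 611 and 452 CPM for WT females, 217 and 178 CPM in RlimKO females and 348 and 204 CPM in WT males. The WT female libraries were the highest, and the RlimKO and male libraries overlapped. The undifferentiated WT female group held 1 count of Dlk1 in all, which gives a ratio of 2174 with a 95% counting interval of 390 to 85872. For RlimKO females, with 2 counts in the undifferentiated group, the ratio was 386 with an interval of 107 to 3191. These intervals cover counting error only. In WT males, where the counts allowed a fitted value, Dlk1 rose by 6.57 ± 0.43 on the log2 scale (adjusted p = 1.89e-08).

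Of the transcriptional regulators, Plagl1 encodes a zinc finger protein that can arrest the cell cycle and is known to activate other imprinted genes (chromosome 10, 13060504 to 13131694, plus strand). It was low in every undifferentiated group, at 3.15 and 8.58 CPM for WT females, 2.34 and 3.84 CPM in RlimKO females and 8.91 and 2.65 CPM in WT males. Differentiated cells held 1176 and 1042 CPM in WT females and 1302 and 1261 CPM in RlimKO females, but 71.4 and 20.8 CPM in WT males. Every differentiated female library was thus above every male one. The rise was 7.53 ± 0.58 on the log2 scale in WT females (adjusted p = 1.57e-07), 8.63 ± 0.63 (adjusted p = 7.62e-08) in RlimKO females and 3.1 ± 0.56 (adjusted p = 0.000311) in WT males.

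Peg3 encodes a large zinc finger DNA-binding protein (chromosome 7, 6703892 to 6730431, minus strand). It went from 98.7 and 88.7 CPM to 2914 and 2683 CPM in WT females, from 72.4 and 98.5 CPM to 2847 and 3110 CPM in RlimKO females, and from 88.0 and 69.9 CPM to 2382 and 1036 CPM in WT males. The changes lay close together, at 4.90 ± 0.33, 5.12 ± 0.34 and 4.44 ± 0.32 on the log2 scale (adjusted p = 4.32e-08, 2.73e-08 and 5.52e-08). Usp29, which shares the start region of Peg3, rose as well, from 0 to 1.76 CPM to between 16.2 and 33.8 CPM, by 4.78 ± 0.60 on the log2 scale in WT females and 3.99 ± 0.49 in WT males (adjusted p = 1.39e-05 and 9.11e-06). For RlimKO females, with 2 counts of Usp29 in the undifferentiated group, the ratio was 61.1 with a 95% counting interval of 16.7 to 508.

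Ndn, which encodes necdin, a MAGE-family protein of postmitotic neurons (chromosome 7, 62346569 to 62350262, plus strand), went from 6.83 and 11.9 CPM to 66.7 and 55.1 CPM in WT females. In RlimKO females it went from 10.5 and 5.97 CPM to 79.7 and 75.6 CPM, and in WT males from 5.94 and 1.76 CPM to 23.0 and 15.3 CPM. It rose by 2.69 ± 0.38, 3.27 ± 0.39 and 2.43 ± 0.42 on the log2 scale (adjusted p = 3.95e-05, 9.02e-06 and 0.000212). Its neighbour Snrpn had no count in 11 of the 12 libraries and 0.197 CPM in the remaining one, and Snurf had no count in any. Whether reads of Snrpn and Snurf were set aside by the counter as falling on overlapping genes was not tested. Their lack of counts therefore need not mean a lack of RNA. Magel2 stayed between 0 and 7.97 CPM, so of the genes followed in that imprinted domain Ndn had the highest counts as deposited.

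Of the retroposon-derived and membrane proteins, Peg10 comes from a domesticated retrotransposon and is needed for the placenta (chromosome 6, 4747306 to 4760517, plus strand). It was already at 148 to 201 CPM in all 6 undifferentiated libraries. Differentiated cells held 1631 and 1571 CPM for WT females, 3133 and 2917 CPM in RlimKO females and 2243 and 1656 CPM in WT males, with the RlimKO libraries highest and no overlap among the 3 groups. Peg10 rose by 3.05 ± 0.17, 4.22 ± 0.18 and 3.71 ± 0.18 on the log2 scale in WT females, RlimKO females and WT males (adjusted p = 9.22e-09, 8.17e-10 and 1.24e-09).

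Sgce, the epsilon-sarcoglycan gene, starts next to Peg10 and runs the other way (chromosome 6, 4674350 to 4747207, minus strand). Its levels were far lower, from 1.70 to 6.30 CPM before differentiation. After it they were 41.2 and 45.0 CPM for WT females, 57.4 and 48.5 CPM in RlimKO females and 25.9 and 33.5 CPM in WT males. After differentiation the RlimKO libraries were the highest, but Sgce was not called between the female lines (0.27 on the log2 scale, adjusted p = 0.209 by edgeR on only the libraries compared). Sgce rose by 3.41 ± 0.38, 4.25 ± 0.41 and 2.94 ± 0.35 on the log2 scale (adjusted p = 4.98e-06, 1.21e-06 and 6.52e-06).

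Mest encodes a hydrolase-like protein that marks mesoderm (chromosome 6, 30723547 to 30748465, plus strand). It went from 99.8 and 138 CPM to 1147 and 1212 CPM in WT females, from 137 and 152 CPM to 1076 and 1020 CPM in RlimKO females, and from 46.4 and 44.5 CPM to 1038 and 360 CPM in WT males. It rose by 3.31 ± 0.35, 2.86 ± 0.35 and 3.94 ± 0.37 on the log2 scale (adjusted p = 3.22e-06, 1.12e-05 and 6.51e-07). Copg2, which overlaps the end of Mest on the opposite strand, lay at 32.9 to 54.9 CPM before and 20.7 to 40.3 CPM after differentiation, and fell in RlimKO females (-0.74 on the log2 scale, adjusted p = 0.0159, but up to 0.118 without undifferentiated replicate 2 or differentiated replicate 1).

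Nnat encodes neuronatin, a small membrane protein of the endoplasmic reticulum, from within an intron of Blcap (chromosome 2, 157560078 to 157562522, plus strand). It went from 3.68 and 2.86 CPM to 146 and 149 CPM in WT females, from 3.50 and 1.70 CPM to 201 and 174 CPM in RlimKO females, and from 6.31 and 3.53 CPM to 57.2 and 10.4 CPM in WT males. The differentiated male libraries were the lowest and lay far apart. Nnat rose by 5.49 ± 0.70, 6.22 ± 0.73 and 2.78 ± 0.63 on the log2 scale (adjusted p = 1.73e-05, 8.12e-06 and 0.00189). Its host Blcap moved less, by 1.11, 1.18 and 1.31 on the log2 scale (adjusted p = 0.00232, 0.00225 and 0.000269).

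Kcnq1ot1 is the only noncoding member, a long nuclear RNA antisense to Kcnq1 that silences neighbours such as Cdkn1c on the paternal chromosome (chromosome 7, 143203458 to 143296549, minus strand). It was abundant from the start, at 497 and 443 CPM in undifferentiated WT females, 520 and 584 CPM in RlimKO females and 221 and 262 CPM in WT males. After differentiation it stood at 941 and 923 CPM for WT females, 908 and 944 CPM in RlimKO females and 298 and 213 CPM in WT males. It rose by 0.99 ± 0.17 on the log2 scale in WT females (adjusted p = 0.000231), and RlimKO females showed a rise of 0.75 ± 0.17 (adjusted p = 0.00211), the latter no longer passing without undifferentiated RlimKO replicate 1 (adjusted p = 0.0651). In WT males the change was 0.08 ± 0.17 (adjusted p = 0.716), and of the 12 fits without 1 library it passed in 1, without differentiated male replicate 2 (adjusted p = 0.0325). How the authors' counting treated strand is not given, so reads of Kcnq1ot1 and Kcnq1, and likewise of Peg3 and Usp29, Nnat and Blcap, or Mest and Copg2 where they overlap, may not be separated. Kcnq1 itself held 0 to 1.05 CPM in every library.

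**Figure D2:**
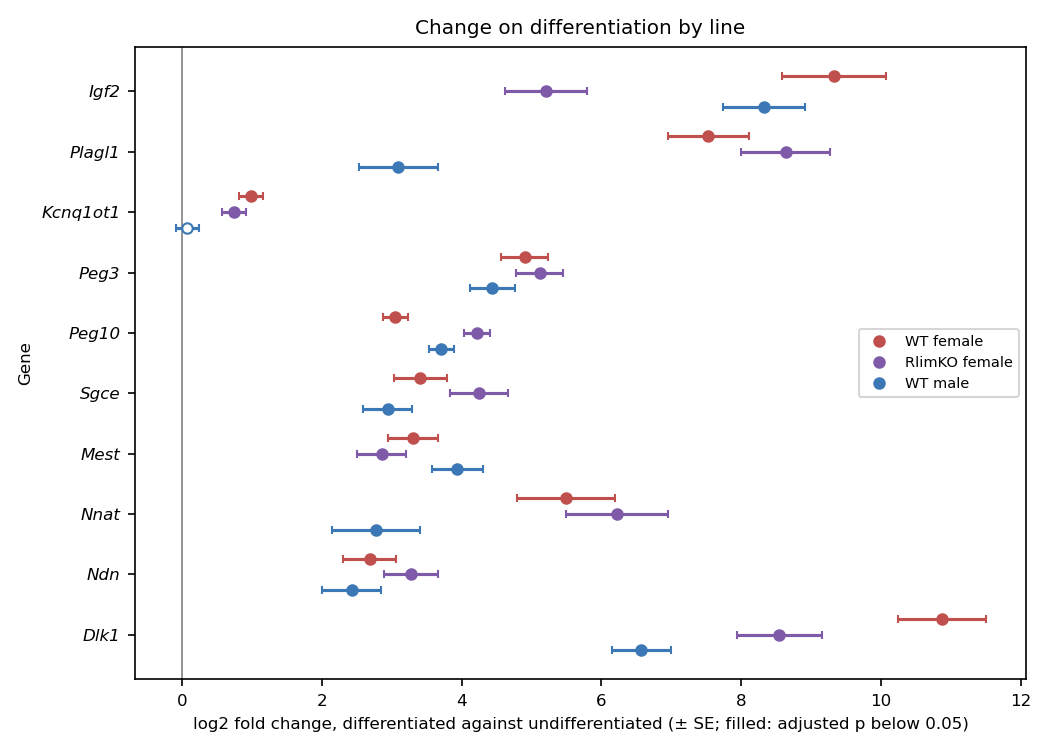
Fitted log2 fold change of differentiated against undifferentiated cells (x axis, ± SE) for each gene in the 3 lines, filled where the adjusted p was below 0.05. Values run from 0.08 for Kcnq1ot1 in WT males to 10.87 for Dlk1 in WT females, which rests on 1 undifferentiated count.

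Per kilobase of annotated exon, the order of the genes changed with the line. In differentiated WT females Mest was highest at 299 CPM per kb, followed by Peg10 at 240, Peg3 at 210 and Igf2 at 200, of which the libraries of Peg3 and Igf2 overlapped. In differentiated RlimKO females Peg10 led at 454 CPM per kb, then Mest at 266, Peg3 at 224 and Plagl1 at 164, with Igf2 at 63.3 in sixth place and no overlap between neighbours among the 10. In differentiated WT males Igf2 led at 895 CPM per kb, ahead of Peg10 at 292, Mest at 177 and Peg3 at 128, and the libraries of Peg10 and Mest, and of Mest and Peg3, overlapped. Kcnq1ot1, spread over 93.1 kb, was at 10.0 CPM per kb in differentiated WT females and 2.74 in WT males, near the bottom of the order on this scale. Igf2 made up 12.0% and 12.0% of the summed CPM of the 10 genes in differentiated WT females, 4.13% and 3.01% in RlimKO females and 52.9% and 45.4% in WT males. Without Igf2 the sum was lower in the male libraries (6487 and 3548 CPM) than in WT females (8673 and 8133 CPM) or RlimKO females (9821 and 9728 CPM).

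Before differentiation few of the genes differed between lines. Between undifferentiated RlimKO and WT females 0 of the 10 passed an adjusted p of 0.05 by edgeR, as against 0.242% of all genes, with 1 gene (Igf2) at an unadjusted p below 0.05 and 0 called by DESeq2. The female lines did differ from the male line at 2 genes each. Kcnq1ot1 was higher by 0.96 ± 0.17 on the log2 scale in WT females (adjusted p = 0.00483) and by 1.19 ± 0.17 in RlimKO females (adjusted p = 0.000795), and all 4 female libraries, at 443 to 584 CPM, lay above both male ones. Mest was higher by 1.39 ± 0.36 in WT females (adjusted p = 0.0328) and by 1.67 ± 0.36 in RlimKO females (adjusted p = 0.00967), again without overlap. Over all genes, 6.63% differed and 3.12% were higher in WT females than in WT males, and 10% differed and 4.6% were higher in RlimKO females than in WT males; both comparisons share the male libraries. The Kcnq1ot1 call in WT females did not pass without undifferentiated male replicate 1 (adjusted p = 0.0665), and the Mest calls held in 6 of 12 (WT) and 9 of 12 (RlimKO) fits that each left out 1 library, with adjusted p up to 0.188 and 0.0839. Igf2, at 0.525 and 2.86 CPM in WT females and 15.6 and 16.1 CPM in WT males, gave a difference of -3.16 ± 0.97 (adjusted p = 0.0675).

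After differentiation the RlimKO females differed from the WT females at 2 of the 10 genes, beside 2.59% of all genes. Peg10 was higher by 0.92 ± 0.16 on the log2 scale (adjusted p = 0.00637) and Dlk1 was lower, at -1.43 ± 0.28 (adjusted p = 0.0136), each without overlap of the libraries. Igf2 gave -1.66 ± 0.43, a 3-fold difference in group means (1143 and 363 CPM), and its libraries did not overlap either, but its adjusted p was 0.0539. Fitted on only the libraries compared, Igf2 gave -1.67 (adjusted p = 1.31e-10), Dlk1 -1.45 (2.21e-09) and Peg10 0.92 (2.31e-06). Nnat passed there too, at 0.33 (0.0272). Peg10 did not pass in any of the 4 fits that left out 1 differentiated female library (adjusted p up to 0.115), Dlk1 did not pass without WT replicate 1 or either RlimKO library (up to 0.261), and Igf2 passed in 4 of the 12 such fits, among them those without either differentiated male library. Kcnq1ot1 differed by -0.01 ± 0.17, Peg3 by 0.09 ± 0.27, Plagl1 by 0.21 ± 0.37 and Mest by -0.17 ± 0.32, with adjusted p from 0.868 to 0.991.

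The domain partners of Dlk1 went the other way from Dlk1 in this comparison. Meg3, the maternally expressed noncoding RNA of the domain, stood at 1221 and 1186 CPM in differentiated WT females and at 2468 and 1908 CPM in RlimKO females, a difference of 0.86 ± 0.18 on the log2 scale (adjusted p = 0.0192). Rian, another maternal RNA there, was higher in RlimKO females by 1.13 ± 0.23 (adjusted p = 0.0148), and Rtl1, a paternally expressed retrotransposon-derived gene of the same domain, by 1.03 ± 0.22 (adjusted p = 0.0232). Rtl1 is read antisense to maternal transcripts, so its counts may include theirs. Before differentiation, when Dlk1 held 1 and 2 counts in the WT and RlimKO female groups, Meg3 was already higher in RlimKO females by 1.16 ± 0.19 (adjusted p = 0.0321) and Rian by 1.24 ± 0.24 (adjusted p = 0.0465), calls that held in 5 and 2 of 12 fits without 1 library (adjusted p up to 0.319 and 0.398). None of the 3 calls in differentiated cells passed in the 4 fits that each left out 1 differentiated female library (adjusted p up to 0.237, 0.2 and 0.342 for Meg3, Rian and Rtl1). In the Peg3 domain, where Peg3 and Usp29 were alike in both female lines, the maternally expressed Zim1 was at 78.3 and 78.4 CPM in WT females and at 5.84 and 2.68 CPM in RlimKO females, a difference of -4.36 ± 0.32 (adjusted p = 7.53e-06) that held in 12 of 12 fits without 1 library.

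The largest differences lay between the differentiated female lines and the male line. In WT females 6 of the 10 genes differed from WT males, beside 8.97% of all genes, and in RlimKO females 6 of 10, beside 11.6%; both comparisons share the male libraries. Plagl1 was higher by 4.64 ± 0.44 on the log2 scale in WT females (adjusted p = 4.25e-05) and by 4.85 ± 0.45 in RlimKO females (adjusted p = 2.98e-05). Kcnq1ot1 was higher by 1.87 ± 0.17 (adjusted p = 2.85e-05) and 1.86 ± 0.17 (adjusted p = 2.98e-05). Nnat was higher in both female lines by 2.20 ± 0.47 and 2.54 ± 0.48 (adjusted p = 0.0109 and 0.00404), and Ndn by 1.70 ± 0.31 and 2.04 ± 0.32 (adjusted p = 0.00446 and 0.0012). Of 7 neuroectoderm genes tested, 1 was higher in WT females than in WT males and 1 was lower in RlimKO females, with medians of 0.10 and -0.60 on the log2 scale. Igf2 was lower in both female lines, at -2.16 ± 0.43 in WT females (adjusted p = 0.007) and -3.83 ± 0.46 in RlimKO females (adjusted p = 0.000202). The sixth gene was Dlk1 in WT females, higher by 0.95 ± 0.28 (adjusted p = 0.0448), and Peg10 in RlimKO females, higher by 0.63 ± 0.16 (adjusted p = 0.0189).

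Plagl1 and Kcnq1ot1 passed in both female lines in 12 of 12 fits that left out 1 library, as did Igf2, Nnat and Ndn in RlimKO females. In WT females Igf2 and Nnat did not pass without either WT female library (adjusted p up to 0.105 and 0.0709) and were not called by DESeq2 (adjusted p = 0.232 and 0.0626), Ndn did not pass without WT female replicate 1 (0.0649), and Dlk1 passed in 4 of 12. Peg10 did not pass without either RlimKO library (up to 0.123). Fitted on only the libraries compared, with similar fold changes, 0 of the 10 passed in either comparison: the adjusted p ran from 0.117 to 0.242 for the 6 genes in WT females and from 0.0775 to 0.269 in RlimKO females. With 2 libraries a group, the smallest exact permutation p for a single gene is 0.33, so these calls rest on the spread shared over groups and genes.

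The spread between the differentiated male libraries bears on each of these values. Mest (1038 and 360 CPM), Peg3 (2382 and 1036 CPM), Nnat (57.2 and 10.4 CPM) and Plagl1 (71.4 and 20.8 CPM) were all lower in replicate 2, as were the fibroblast genes Lum (93.4 and 3.22 CPM) and Dcn (42.0 and 2.04 CPM). The summed level of 13 fibroblast and feeder genes was 16097 and 7308 CPM in these libraries, 11600 and 9781 CPM in differentiated WT females and 15925 and 15476 CPM in RlimKO females, and 13 of 13 had counts in each of the 3 groups. By edgeR, 0 of the 13 were higher in WT or RlimKO females than in WT males and 1 (Fn1) was lower in WT females, with 4 and 5 at an unadjusted p below 0.05 in either direction and 1 and 0 called by DESeq2. The median difference of the 13 was 0.93 on the log2 scale in WT females and 0.76 in RlimKO females, beside 0.85 and 0.81 for the 10 imprinted genes and -0.02 and -0.04 over all genes tested. The part of cell makeup in the differences between lines was not tested. Without male replicate 1 or 2, Plagl1 was higher by 5.76 or 3.96 in WT females and by 5.91 or 4.14 in RlimKO females, and Kcnq1ot1 by 2.15 or 1.65 and by 2.10 or 1.61. Nnat moved further, to 3.84 or 1.37 in WT females and 4.13 or 1.68 in RlimKO females, and Igf2 to -1.35 or -2.67 and to -3.07 or -4.37. Ndn lay at 2.02 or 1.42 and at 2.32 or 1.73, Dlk1 in WT females at 1.41 or 0.62 and Peg10 in RlimKO females at 0.84 or 0.40.

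The differentiated male libraries also stood apart from the female ones in composition. Rn45s took 22.5% and 6.36% of their counts, against 30.8% to 67.7% in the 4 differentiated female libraries, and Lars2, a mitochondrial leucyl-tRNA synthetase gene, took 0.862% and 0.0212% against 4.59% to 7.84%. With both genes removed from the counts, 6 of the 10 imprinted genes were still called in each comparison with WT males. That removal left every other gene in place, so whether the difference in composition bears on the calls was not tested.

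**Figure D3:**
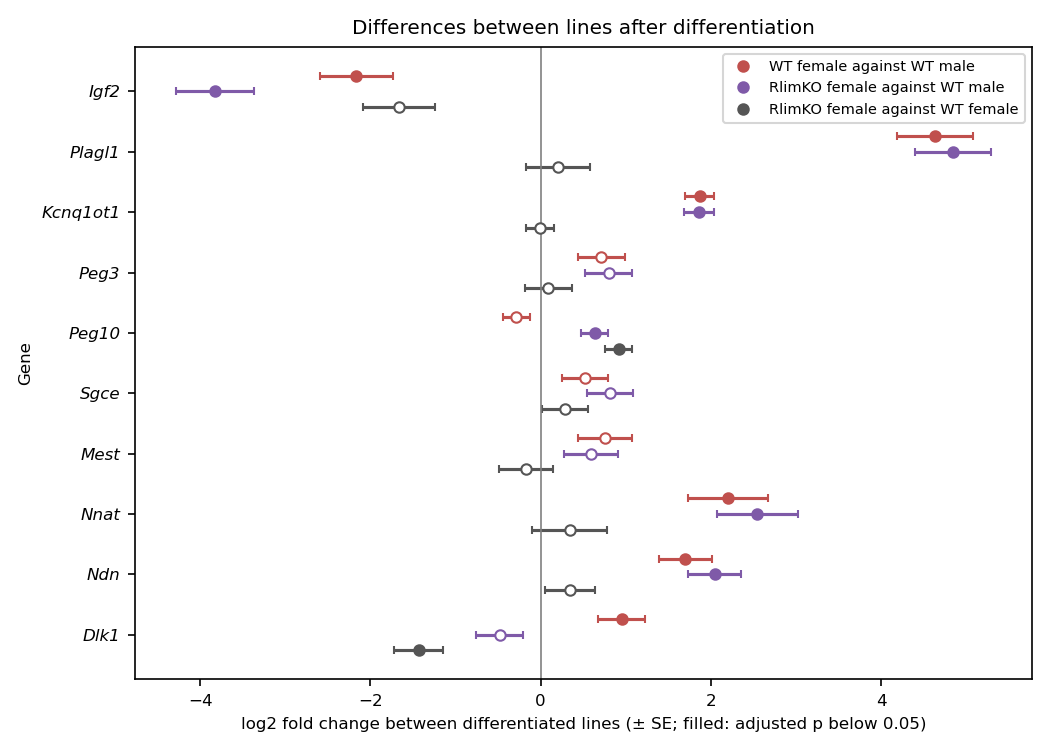
Fitted log2 fold change between differentiated lines (x axis, ± SE) for each gene in 3 comparisons, filled where the adjusted p was below 0.05. Plagl1 lies at 4.64 and 4.85 in the female lines against WT males and Igf2 at -2.16 and -3.83, while between the female lines Peg10 (0.92) and Dlk1 (-1.43) are filled.

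Whether a gene responded differently to differentiation was tested by the interaction of line and state. In the edgeR fit of all libraries Plagl1 was the only one of the 10 to pass. Its rise was larger in WT females than in WT males by 4.43 ± 0.92 on the log2 scale (adjusted p = 0.0298). The rise of Plagl1 was also larger in RlimKO females than in WT males, by 5.54 ± 1.0 (adjusted p = 0.012). The undifferentiated groups held 24, 13 and 36 counts of Plagl1 in WT females, RlimKO females and WT males. Of all genes, 1.39% passed in the first and 2.61% in the second. The first call held in 2 of 12 fits without 1 library (adjusted p up to 0.257), those without a differentiated male library, and the second in 9 of 12 (up to 0.126); on only the libraries compared, neither passed (adjusted p = 0.115 and 0.0589). Between the female lines 0 of the 10 passed, against 0.203% of all genes, with 2 at an unadjusted p below 0.05 and 1 (Peg10) called by DESeq2. Those with the smallest p were Peg10, at 1.17 ± 0.23 (adjusted p = 0.0607), and Igf2, at -4.12 ± 1.15 (adjusted p = 0.199). Kcnq1ot1 gave 0.91 ± 0.24 for WT females against WT males (adjusted p = 0.0746), so the female excess of Kcnq1ot1 was present before differentiation and its growth was not called in the fit of all libraries. Without differentiated male replicate 1 or 2 that value moved to 1.13 or 0.63. Other genes had large values against WT males without passing in the fit of all libraries. Dlk1 gave 4.30 for WT females (adjusted p = 0.13), and for RlimKO females Igf2 gave -3.12 (0.064) and Nnat 3.44 (0.13).

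The maternally expressed neighbours did not all follow the paternally expressed genes. H19, the noncoding RNA that shares an enhancer and a control region with Igf2, lay between 2.34 and 32.7 CPM in undifferentiated libraries and rose to 6248 and 6849 CPM in WT females and 5635 and 4422 CPM in RlimKO females, but to 130 and 163 CPM in WT males. The change was 8.62 ± 0.52, 9.26 ± 0.55 and 2.80 ± 0.42 on the log2 scale (adjusted p = 1.4e-08, 1.08e-08 and 6.04e-05). The interaction with the male line was 5.82 ± 0.63 (adjusted p = 0.000354) for WT females and 6.46 ± 0.67 (adjusted p = 0.000198) for RlimKO females. The ratio of Igf2 to H19 CPM was 0.189 and 0.161 in differentiated WT females, 0.0751 and 0.0682 in RlimKO females, and 56.0 and 18.1 in WT males. Ins2, which lies beside Igf2, had no count in any library.

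Cdkn1c, the growth-inhibiting cell cycle gene in the domain of Kcnq1ot1, was opposite to Kcnq1ot1 between the female lines and the male line. It held 22.5 and 22.0 CPM in differentiated WT females and 25.0 and 22.7 CPM in RlimKO females against 98.0 and 102 CPM in WT males, at -2.17 ± 0.25 and -2.08 ± 0.25 on the log2 scale (adjusted p = 0.000149 and 0.000202). Within each female line, however, both genes stood higher in differentiated than in undifferentiated libraries. Undifferentiated WT females had only 3.15 and 2.86 CPM of Cdkn1c, and undifferentiated RlimKO females 0.584 and 2.98 CPM. Undifferentiated WT males had 7.43 and 12.3 CPM of Cdkn1c, also below their differentiated libraries. Silencing of Cdkn1c by Kcnq1ot1 was not tested. Cdkn1c was also lower in the female lines before differentiation. The values were -1.75 ± 0.42 in WT females (adjusted p = 0.0227) and -2.37 ± 0.45 in RlimKO females (adjusted p = 0.00498). The first of these did not pass when an undifferentiated WT female library or male replicate 2 was left out, and the second without RlimKO replicate 1 or male replicate 2 (adjusted p up to 0.203 and 0.067). Igf2r, the maternally expressed receptor that clears IGF2, was at 64.3 and 69.4 CPM in differentiated WT females, 38.8 and 35.6 CPM in RlimKO females and 2107 and 1621 CPM in WT males, at -4.80 ± 0.18 and -5.65 ± 0.19 (adjusted p = 3.86e-10 and 9.54e-11). Igf2 and Igf2r were thus both highest in the differentiated male libraries.

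**Figure D4:**
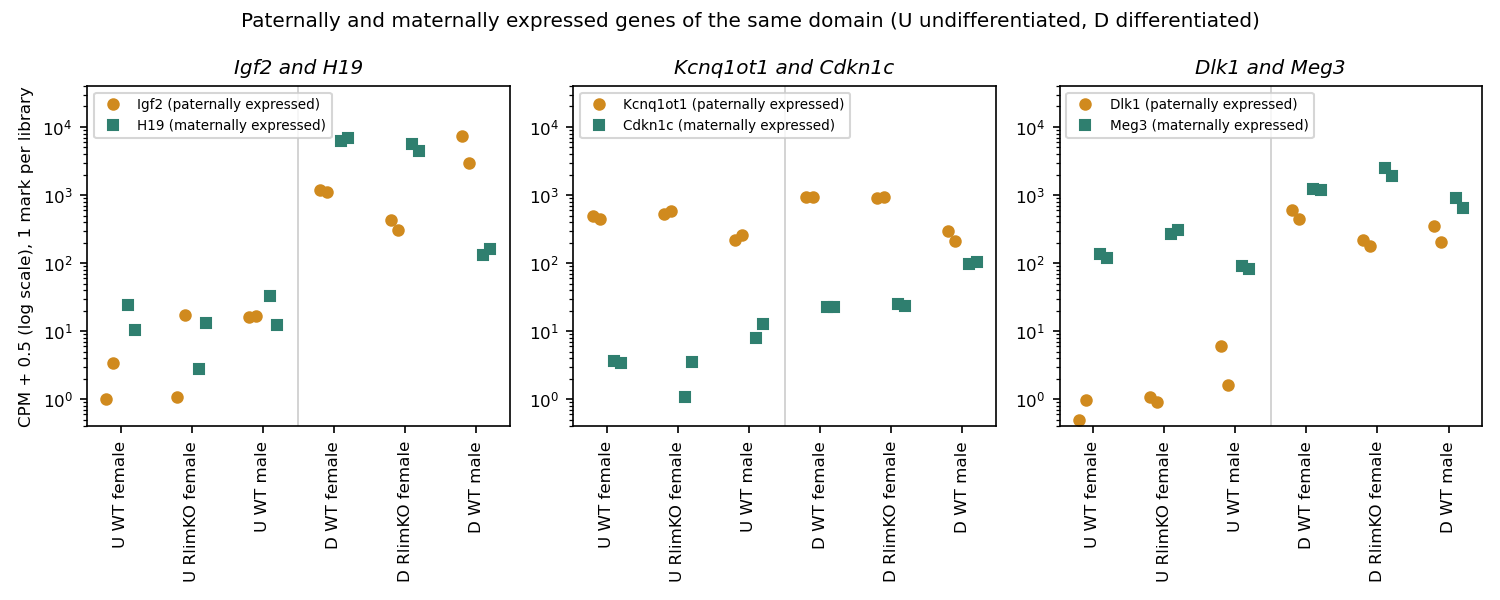
CPM + 0.5 on a log axis, 1 mark per library, for 3 paternally expressed genes (circles) and a maternally expressed gene of the same domain (squares) in undifferentiated (U) and differentiated (D) cells. H19 lies between 4422 and 6849 CPM in differentiated female libraries and at 130 and 163 CPM in the male ones, where Igf2 is highest.

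Other paternally expressed genes were less uniform. Of 27 listed, 24 were in the table and 17 were tested: 7 rose and 1 fell with differentiation in WT females, 9 rose and 2 fell in RlimKO females, and 6 rose and 1 fell in WT males, with medians of 0.75, 1.23 and 0.98 on the log2 scale. Slc38a4, an amino acid transporter gene, rose by 2.45, 2.37 and 2.10 (adjusted p = 1.93e-07, 1.9e-07 and 3.08e-07), and Gab1, a signalling adaptor gene, fell by 1.62 in WT females (adjusted p = 3.67e-06). Airn, the noncoding RNA antisense to Igf2r, had no count in undifferentiated females, 0.371 and 1.10 CPM in undifferentiated males, and 24.6 to 57.0 CPM in differentiated libraries. Between the differentiated female lines and the male line, Rtl1 and Impact, a translation regulator gene, were higher in females, by 1.33 and 0.83 in WT females (adjusted p = 0.00326 and 0.00477) and by 2.37 and 1.03 in RlimKO females (adjusted p = 6.04e-05 and 0.00104). Of the 17, 4 were higher and 4 lower in WT females than in WT males, 3 higher and 1 lower in RlimKO females than in WT males, and 2 (Rtl1 and Zdbf2) higher and 0 lower in RlimKO than in WT females. Neither of the last calls passed without 1 of the differentiated female libraries (adjusted p up to 0.342 and 0.325), and against WT males the WT female calls did not pass without WT female replicate 1 for Rtl1 (0.0658) or replicate 2 for Impact (0.0709).

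Of the 23 maternally expressed genes tested, 12 rose and 2 fell in WT females, 12 rose and 3 fell in RlimKO females, and 15 rose and 0 fell in WT males. Of 16 tested factors that keep or remove imprint methylation, 11 fell and 4 rose in WT females, 7 fell and 4 rose in RlimKO females, and 12 fell and 3 rose in WT males. Tet1, a methylcytosine oxidase gene, fell in the 3 lines, with changes of -3.13, -3.55 and -3.80 on the log2 scale (adjusted p = 1.44e-09, 8.15e-10 and 2.8e-10), and so did Zfp57, with changes of -1.75, -1.66 and -1.29 (adjusted p = 5.54e-07, 1.22e-06 and 6.95e-06). Of 17 genes of the IGF axis around Igf2, 13 rose and 2 fell in WT females, 12 rose and 2 fell in RlimKO females, and 15 rose and 1 fell in WT males. In WT females the binding protein genes Igfbp4 and Igfbp5 rose by 7.15 and 7.69 and the receptor substrate gene Irs1 by 6.52 (adjusted p = 1.02e-09, 2.32e-08 and 1.28e-08).

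For the cell types that these cultures can hold, fibroblast genes rose in 12, 10 and 12 of 13 cases in WT females, RlimKO females and WT males, and 0, 0 and 1 fell. Mesoderm genes rose in 9, 6 and 9 of 11 and fell in 0, 1 and 0, and endoderm genes rose in 11, 9 and 11 of 11 with none falling. Pluripotency genes fell in 15, 13 and 15 of 16 with none rising. Of 7 neuroectoderm genes tested, 2 rose and 5 fell in each line. In WT females those that rose were Nes, by 3.47 on the log2 scale (adjusted p = 2.5e-07), and Ncam1, by 1.39 (adjusted p = 0.00067). Ncam1 also rose in WT males, by 3.54 (adjusted p = 3e-07). Among those that fell, Sox1 had no count in any differentiated library. Of 4 trophoblast genes tested 3 rose in each line, among them Hand1, which is also in the mesoderm list. In WT females, RlimKO females and WT males 1, 0 and 1 fell, the gene being Tfap2c. Of the 10 trophoblast genes listed, 6, 7 and 8 had counts in differentiated WT females, RlimKO females and WT males. Their summed level averaged 48.8, 134 and 156 CPM there, against 21.4, 7.71 and 27.3 CPM in the undifferentiated groups. The placental genes Prl2c2 and Tpbpa had no count in any of these differentiated libraries.

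The genes whose pattern over the 6 groups was nearest to the members were ranked by the root mean square difference of centred group means of log2 CPM, among 7786 genes. These values are descriptions over 6 points that share libraries. H19 was nearest to Plagl1, at 0.536, followed by Lum at 0.808 and Dcn at 0.895, both proteoglycan genes of connective tissue. Acta2, the smooth muscle actin gene, was nearest to Igf2 at 0.828. Fbn1, the fibrillin gene, was second nearest to Peg3 at 0.227, and Col12a1, a collagen gene, was nearest to Dlk1 at 0.408. Frmd6 was nearest to Peg10 at 0.250, Maged2 to Mest at 0.231, Epha3 to Nnat at 0.288, Akt1 to Ndn at 0.456 and Brf1 to Kcnq1ot1 at 0.161. Among the 10 themselves, the neighbours Peg10 and Sgce were the closest pair at 0.324, then Mest and Ndn at 0.489, and Igf2 and Kcnq1ot1 were the farthest apart at 4.19.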

How the data were processed

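RNA of 12 libraries was reverse transcribed with template switching, tagmented and sequenced, per the labels' protocols. The authors deposited raw counts per gene symbol; the submitters' processing notes name HTSeq 0.6.1p1, edgeR 3.10.0, TopHat2 2.0.12 and bcl2fastq 2.16.0.10, and mm10 as the build. The gene annotation, the aligner settings and the strand setting are not given in the sources used here. The 5 summary lines of the counter were set aside (ambiguous reads were 0.241% to 0.926% of all deposited counts, summary lines included). Libraries held 2011919 to 5401940 counts, and a group floor is 3 counts.

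Counts were filtered by edgeR's default expression filter, scaled by TMM and fitted with edgeR 4.0.16 (R 4.3.3, quasi-likelihood test) on all 12 libraries with 1 mean per group, for 12 comparisons, with Benjamini-Hochberg adjustment over 12814 genes and a threshold of 0.05. The test of differentiation in WT females was checked on simulated data. Replicate pairs differed beyond sampling noise in each group, so none was a library deposited a second time. Alternatives were RLE factors, no filter and a stricter filter, DESeq2 1.42.0, a replicate block, only the libraries compared, removal of Rn45s and Lars2, removal of the 2 libraries of extreme Rn45s share, and leaving out each library. The members and lists were chosen with earlier results of these data known. All members were named, with fixed domain partners, up to 4 genes per list and comparison by smallest p, and the 3 genes nearest in pattern. Prl2c2 and Tpbpa were named after their values were seen. Zfp264, Hymai, Snhg14 and Map2 had no symbol in the table. Gene positions and exonic lengths came from GENCODE vM21 (GRCm38, the build mm10), and promoter windows from RefSeq GRCm38.p6, which matched 8 members (Peg10 and Sgce had no entry).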

Additional observations from a re-analysis of the deposited data

Results flagged for a closer look

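The rise of Plagl1 with differentiation differed between lines by the test of the interaction itself, by 4.43 on the log2 scale between WT females and WT males and by 5.54 between RlimKO females and WT males. H19 showed such a difference too, by 5.82 for WT females and by 6.46 for RlimKO females. Both comparisons use the same male libraries. With 2 libraries in each group no sample could be tested as standing apart from its group. The library numbers in the sample titles form a separate run for each state. That of differentiated WT male replicate 2 is the exception and lies below all the others. What the numbers stand for is not stated.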

How the results depend on the processing

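When the called changes of the 10 genes were computed again under each alternative, 917 values kept their direction and their side of the threshold, 63 kept the direction without passing, and 0 changed sign. The number of members called was 10, 10 and 9 on differentiation in WT females, RlimKO females and WT males, with 10 to 10, 9 to 10 and 9 to 10 when 1 library was left out. The comparisons between lines were less stable. Between undifferentiated RlimKO and WT females 0 were called, 1 without the filter or when the 2 libraries of extreme Rn45s share were removed, and 0 to 1 with 1 library left out. Between undifferentiated WT females and WT males the 2 calls became 5 without the filter, 5 on only the libraries compared, 6 without the extreme libraries and 1 to 6 with 1 library left out, and for RlimKO females 4 without the extreme libraries and 1 to 3. After differentiation the 2 calls between the female lines became 4 on only the libraries compared and 0 to 3 with 1 left out. The 6 calls of WT females against WT males became 0 on only the libraries compared and 2 to 8 with 1 left out, and the 6 of RlimKO females against WT males became 0 on only the libraries compared, 10 without the filter and 5 to 9 with 1 left out. For the interaction between the female lines, 0 became 2 without the filter, on only the libraries compared or without the extreme libraries, 1 with DESeq2 or without Rn45s and Lars2, and 0 to 2 with 1 left out. For WT females against WT males, 1 became 4 without the filter, 2 with DESeq2, 0 on only the libraries compared, 6 without the extreme libraries and 0 to 6 with 1 left out, and for RlimKO females against WT males 4, 0 and 4 (no filter, only the libraries compared, without the extreme libraries) and 0 to 6. Leaving out differentiated male replicate 1 or 2 gave 6 and 6 interaction calls for WT females and 6 and 4 for RlimKO females against WT males, and the cause was not tested. Over all genes the counts moved more, for example from 332 to between 12 and 1680 for the differentiated female lines with 1 left out, from 1149 to between 186 and 4391 for WT females against WT males, and to 5 on only the libraries compared. The replicate numbers did not pair the libraries: over 15 pairs of groups the correlation of deviations ran from -0.0663 to 0.103, with a median of 0.0108. With a replicate block, 2 members in place of 1 were called in the interaction of WT females against WT males, and no other count of members moved by over 1.5 times. Depth limited Dlk1, Igf2, Plagl1, Sgce, Nnat and Ndn in undifferentiated females, with 1 to 41 counts a group.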
